A study of Mus musculus with 16 samples.

Results

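Intermediate filament and keratin genes were followed in mouse ventricles, as 9 genes taken from the 22372 protein-coding genes measured. The rule listed gene symbols and applied no threshold, but the symbols were chosen with results from these libraries known. The members were the keratins Krt8, Krt18 and Krt19, the cytoplasmic filament genes Des, Vim, Nes and Synm, and the lamin genes Lmna and Lmnb1. Their levels in the groups are therefore given as a description, with no p-value for any of them. RNA came from pieces of ventricle of C57BL/6J mice that were 10 to 12 weeks old at the outset. TAC, a constriction of the transverse aorta, loads the left ventricle with excess pressure, and sham-operated mice were spared it. THZ1, a covalent inhibitor of the transcriptional kinases CDK7, CDK12 and CDK13, was injected into the peritoneum at 10 mg/kg, 2 doses a day, from day 1 to day 60. The other mice of each surgery received vehicle. There were 4 groups of 4 libraries, named TAC-Veh and TAC-THZ1 for the operated hearts and Sham-Veh and Sham-THZ1 for the controls, and the comparisons ask how TAC and THZ1 each alter these genes. Values are normalized counts, that is, reads per gene divided by a size factor of the library.

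Intermediate filaments are rope-like polymers of rod-shaped proteins. Keratins assemble only as pairs of a type I chain, such as Krt18 or Krt19, with a type II chain, such as Krt8, and are best known from epithelia. Desmin ties the Z-discs of muscle cells to one another and to the nucleus, vimentin is the filament of fibroblasts and other mesenchymal cells, and nestin and synemin join filaments built by those partners. Lamins line the inside of the nuclear envelope. These counts report RNA and not filaments or protein.

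Depth was 21.4 to 35.8 M reads in genes per library, and 33.2% to 44.7% of the reads fell in the 13 mitochondrial genes. The cardiomyocyte list, led by Myh6, had all of its 7 markers above 0, with a summed level of 707283 to 1037442 normalized counts in TAC-Veh, 1166919.8 to 1448259 in TAC-THZ1 and 1336800.2 to 1437651 in Sham-Veh. In whole tissue, a change in the number of cells of a type cannot be told apart from a change in RNA per cell. A gene with 0 reads in a library may have been present at up to 3 reads, and such limits and the intervals on reads cover counting error only.

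Per kilobase of exon, the 9 genes spanned over 4 orders of magnitude. In Sham-Veh, Des stood at 10983 ± 323 normalized counts per kilobase (SD, n = 4), Vim at 2091 ± 133, Lmna at 506 ± 18.4 and Nes at 230.2 ± 26.3. Lmnb1 and Synm followed at means of 43.8 and 41.98 per kilobase, and did not differ beyond their spread. The keratins closed the order, with Krt18 at 4.43 ± 1.88, Krt19 at 0.786 ± 0.915 and Krt8 at 0.269 ± 0.314 per kilobase, and the ranges of the last pair overlapped. The first 4 places were the same in each group. In TAC-Veh the mean of Krt18, 78.4 per kilobase with a range of 27.6 to 147, passed those of Synm at 52.1 ± 14.7 and Lmnb1 at 44.6, although the ranges of all 3 overlapped.

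**Figure D1:**
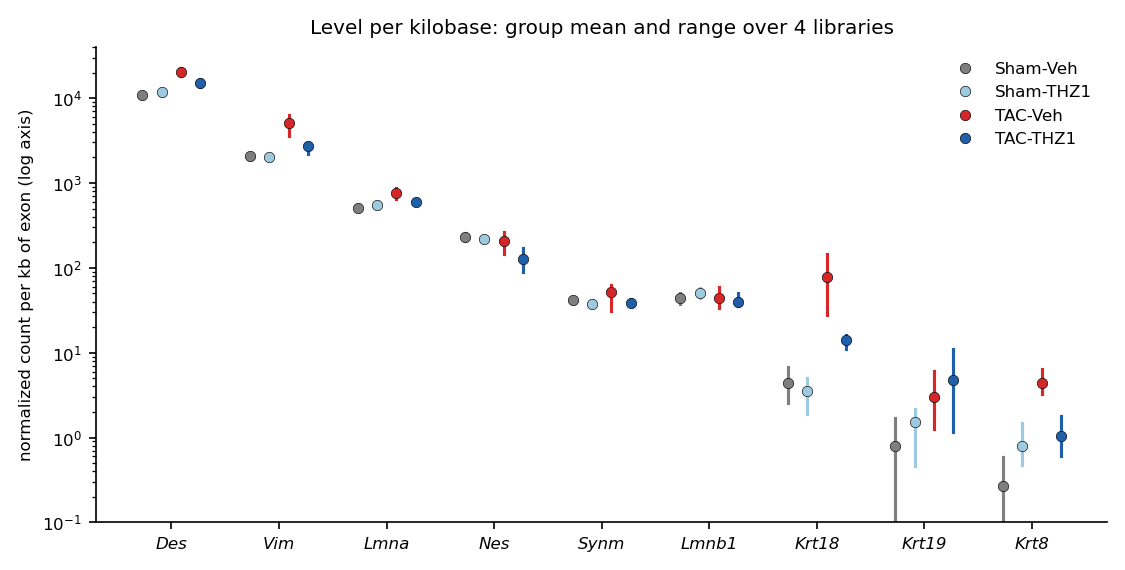
Normalized count per kilobase of exon (log axis) for the 9 genes, with dots for the mean of 4 libraries in each group and lines from the lowest to the highest library. Lines that meet the bottom of the axis include libraries with 0 reads, and the TAC-Veh mean of Krt18 (78.4) lies above that of Synm (52.1).

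Krt18, the type I partner of Krt8, had the largest fitted change with TAC among the 7 members that could be fitted. Every sham library of Krt18 lay below 10 normalized counts. It therefore passed the filter of 10 in at least 4 libraries only through the TAC groups, where it was high. Its 4 Sham-Veh libraries held 9.55, 4.81, 3.54 and 6.89 normalized counts, and the 4 TAC-Veh libraries held 128, 206, 38.6 and 66.4. The groups did not overlap, and within TAC-Veh the highest library held over 5 times the lowest. In TAC-THZ1 the values were 15.3, 19.1, 22.8 and 20.8, each below every TAC-Veh library and above every library of both sham groups. Sham-THZ1 stood at 4.77, 5.19, 2.67 and 7.09, and overlapped Sham-Veh. TAC-Veh had a mean of 109.8 ± 74.2 normalized counts and TAC-THZ1 of 19.5 ± 3.18, against 6.20 ± 2.63 for Sham-Veh and 4.93 ± 1.81 for Sham-THZ1 (SD, n = 4). On the log2(normalized count + 1) scale, the fitted change was 3.75 (SE 0.42) for TAC-Veh against Sham-Veh and -2.18 (SE 0.42) for TAC-THZ1 against TAC-Veh.

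Krt8, like Krt18, was highest in TAC-Veh, but at a far lower level. Over the 4 libraries of each group, 37 reads were counted in TAC-Veh, 8 in TAC-THZ1, 2 in Sham-Veh and 5 in Sham-THZ1. The TAC-Veh libraries held 5.88, 11.4, 6.93 and 7.67 normalized counts, above every library of the other groups, whose highest was 3.25 in TAC-THZ1. Sham-Veh had 1.06 and 0.884 normalized counts in replicates 1 and 3 and 0 in replicates 2 and 4. Scaled by the size factors, the ratio of TAC-Veh to Sham-Veh was 17.5, with a 95% exact Poisson interval of 4.51 to 149.8. The ratio of TAC-THZ1 to TAC-Veh was 0.243, with an interval of 0.0978 to 0.531. Leaving out each library in turn, an alternative chosen after seeing the data, gave 12.3 to 27.1 for the first ratio, with the highest value when Sham-Veh replicate 1 was left out, and 0.177 to 0.293 for the second.

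Krt8 counts carry a limit that weighs less on the other members. Of the 1766 stretches of 40 bases in its transcript, the read length used, 897 (50.8%) matched the NCBIM37 genome exactly at 2 places. The second place was a stretch at chr7:24142113-24143830, between exons of Nlrp4e, a gene with 0 reads in every library. This place held matches to 1061 stretches, more than the 897, so some matched only there. Reads from stretches with a match there cannot be assigned to Krt8 alone, and how the alignment treated them was not tested. The share of stretches that matched at 2 places was 3.38% for Krt18, 1.71% for Nes, 0.678% for Lmnb1 and 0% for the other 5 members.

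Krt19, a type I keratin of simple epithelia and mesothelium, had few reads, and its order between TAC-Veh and TAC-THZ1 rested on replicate 2 of each group. It had 27 reads in TAC-Veh, 33 in TAC-THZ1, 6 in Sham-Veh and 10 in Sham-THZ1. TAC-Veh held 2.35, 11.4, 3.96 and 4.26 normalized counts, and TAC-THZ1 held 2.18, 20.4, 8.95 and 3.96, so that the groups overlapped and replicate 2 was the highest of each, with 16 reads in both. The ratio of TAC-Veh to Sham-Veh was 4.25 (95% exact Poisson interval 1.72 to 12.6), while that of TAC-THZ1 to TAC-Veh was 1.37 with an interval of 0.802 to 2.38. Without TAC-THZ1 replicate 2 the latter ratio was 0.885 (interval 0.452 to 1.68), which turned its direction, and without TAC-Veh replicate 2 it was 2.31 (1.14 to 5.07). The ratio of TAC-Veh to Sham-Veh was 2.53 (0.858 to 8.34) without TAC-Veh replicate 2 and 6.60 (2.03 to 33.97) without Sham-Veh replicate 1. Whether Krt19 differs from Krt8 and Krt18 in its response to THZ1 was not tested.

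Krt8 lies on the minus strand at chr15:101827142-101834773 and Krt18 on the plus strand at chr15:101858647-101862457 in NCBIM37, and no annotated gene lies within the 23.9 kb between them. Their upstream sequences are shown because both of these neighbours were highest in TAC-Veh. RefSeq gives them on build GRCm38.p6, and each matched NCBIM37 once, Krt8 at chr15:101834764-101835023 and Krt18 at chr15:101858397-101858656. Each run covers 250 bases before the start and the first 10 from the start on, written 5′ to 3′ along the gene. Capitals mark the letters TATAAA on either strand.
Krt8: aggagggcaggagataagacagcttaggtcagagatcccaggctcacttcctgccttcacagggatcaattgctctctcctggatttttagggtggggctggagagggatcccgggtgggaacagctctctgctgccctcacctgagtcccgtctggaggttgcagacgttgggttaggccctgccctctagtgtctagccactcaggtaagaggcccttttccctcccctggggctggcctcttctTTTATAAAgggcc
Krt18: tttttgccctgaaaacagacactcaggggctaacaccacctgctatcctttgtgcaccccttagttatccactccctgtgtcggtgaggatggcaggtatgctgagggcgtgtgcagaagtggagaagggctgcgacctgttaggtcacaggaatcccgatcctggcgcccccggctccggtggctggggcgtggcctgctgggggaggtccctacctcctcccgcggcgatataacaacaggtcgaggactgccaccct
The Krt8 window held TATAAA on both strands in overlapping positions at the annotated start. The Krt18 window held none of the 6 motifs searched. These were the TATA box (TATAAA), the GC box of Sp factors (GGGCGG), the AP-1 site (TGANTCA), the TEAD site (GGAATG), the E-box (CACGTG) and the CArG box, each on both strands of the whole 300-base window.

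Of the 32851 promoter windows in the RefSeq table, 13.6% held a TATA box, 35.7% a GC box, 7.81% an AP-1 site, 14.7% a TEAD site, 7.15% the E-box and 1.63% a CArG box. Windows were found for 7 members, with 2 for Lmna, and among these 8 windows 3 held a GC box (Des, Nes and Lmna), 2 a TATA box (Krt8 and Vim), 1 an AP-1 site (Lmna) and 1 the E-box (Synm). None of the 8 held a TEAD site or a CArG box.

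Des encodes desmin, the main cytoplasmic filament of cardiomyocytes. Sham-Veh libraries held 41470, 41129, 39688 and 42634 normalized counts, and TAC-Veh libraries held 84722, 85950, 68194 and 67801. TAC-THZ1 lay between these groups at 62853, 55036, 50061 and 59456, with no overlap with either. Sham-THZ1 ranged from 42330 to 45451 and overlapped Sham-Veh in 1 library only. The fitted log2 change was 0.89 (SE 0.10) for TAC-Veh against Sham-Veh, -0.43 (SE 0.10) for TAC-THZ1 against TAC-Veh and 0.37 (SE 0.10) for TAC-THZ1 against Sham-THZ1. The means were 76667 ± 10024 normalized counts in TAC-Veh and 41230.1 ± 1213 in Sham-Veh (SD, n = 4).

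Vim encodes vimentin. Its values were 5202, 4615, 5097 and 4620 normalized counts in Sham-Veh and 14125, 14919, 9680 and 8313 in TAC-Veh, with no overlap. In TAC-THZ1 they were 6787, 5111, 6944 and 6505, all below TAC-Veh, and replicate 2 lay within the Sham-Veh range. The log2 change was 1.23 (SE 0.15) for TAC-Veh against Sham-Veh and -0.86 (SE 0.15) for TAC-THZ1 against TAC-Veh. Per kilobase, Vim stood at 24.3% ± 3.76 of Des in TAC-Veh and 18.05% ± 3.08 in TAC-THZ1, and at 19.1% ± 1.58 for Sham-Veh and 17.4% ± 0.467 for Sham-THZ1 (SD, n = 4).

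The windows upstream of Des (chr1:75356617-75356876) and Vim (chr2:13495688-13495947) in NCBIM37 are given in the same way, since these genes were the most abundant members and were higher in the same libraries. Capitals mark GGGCGG on the reverse strand in Des and TATAAA in Vim.
Des: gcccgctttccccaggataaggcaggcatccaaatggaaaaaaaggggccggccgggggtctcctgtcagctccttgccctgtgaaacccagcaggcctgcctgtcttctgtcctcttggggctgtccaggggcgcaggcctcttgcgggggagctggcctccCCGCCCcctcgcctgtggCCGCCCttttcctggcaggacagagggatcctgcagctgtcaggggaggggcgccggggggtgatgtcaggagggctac
Vim: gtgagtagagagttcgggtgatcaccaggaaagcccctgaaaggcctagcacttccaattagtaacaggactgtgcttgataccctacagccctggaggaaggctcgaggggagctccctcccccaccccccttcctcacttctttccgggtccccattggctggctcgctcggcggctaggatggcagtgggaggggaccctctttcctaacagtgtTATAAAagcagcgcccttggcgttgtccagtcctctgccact
In Des the matches lay 87 to 82 and 69 to 64 bases before the start, and in Vim the match lay 32 to 27 bases before it.

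Nes, which encodes nestin, did not share the pattern of Des and Vim. Synm, which encodes synemin, had fitted changes in the same directions as Des and Vim, but its groups overlapped. Nes held 1642, 1313, 1352 and 1602 normalized counts in Sham-Veh and 1173, 1521, 936 and 1675 in TAC-Veh, so these groups overlapped. TAC-THZ1 was lower at 570.1, 659, 1097 and 975, below every sham library. Its log2 change was -0.18 for TAC-Veh against Sham-Veh (95% interval -0.59 to 0.22), -0.70 (SE 0.19) for TAC-THZ1 against TAC-Veh and -0.82 (SE 0.19) for TAC-THZ1 against Sham-THZ1. Relative to Vim per kilobase, Nes stood at 4.40% ± 1.98 in TAC-Veh and 4.74% ± 1.21 in TAC-THZ1, and at 9.65% to 12.6% in the Sham-Veh libraries. Synm held 364, 320.1, 303 and 345 in Sham-Veh and 247, 486, 420.1 and 502 in TAC-Veh, where replicate 1 was the lowest of all 16 libraries. TAC-THZ1 ranged from 280 to 339. The intervals for Synm were -0.08 to 0.61 for TAC-Veh against Sham-Veh and -0.75 to -0.06 for TAC-THZ1 against TAC-Veh.

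Of the lamin genes, Lmna, whose transcripts give lamins A and C, was higher in TAC-Veh. It held 2197, 2059, 2115 and 2231 normalized counts in Sham-Veh, 3733, 3546, 2749 and 3006 in TAC-Veh, and 2520.5, 2401, 2694 and 2537 in TAC-THZ1. The 3 groups did not overlap, and Sham-THZ1, at 2270.3 to 2479, also lay above Sham-Veh. The log2 change was 0.59 (SE 0.08) for TAC-Veh against Sham-Veh, -0.35 (SE 0.08) for TAC-THZ1 against TAC-Veh and 0.14 (SE 0.08) for Sham-THZ1 against Sham-Veh. Gene counts do not separate lamin A from lamin C.

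Lmnb1, which encodes lamin B1, varied within groups about as much as between them. Its values were 128, 128, 111 and 151 normalized counts in Sham-Veh, 99.9, 178, 101 and 149.9 in TAC-Veh, and 104, 111, 151 and 109 in TAC-THZ1. The interval of its log2 change was -0.38 to 0.36 for TAC-Veh against Sham-Veh and -0.50 to 0.24 for TAC-THZ1 against TAC-Veh. Lmnb1 per kilobase amounted to 5.87% ± 1.62 of Lmna in TAC-Veh and 6.68% ± 0.943 in TAC-THZ1, and to 8.64% ± 0.896 for Sham-Veh and 9.05% ± 1.37 for Sham-THZ1 (SD, n = 4).

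**Figure D2:**
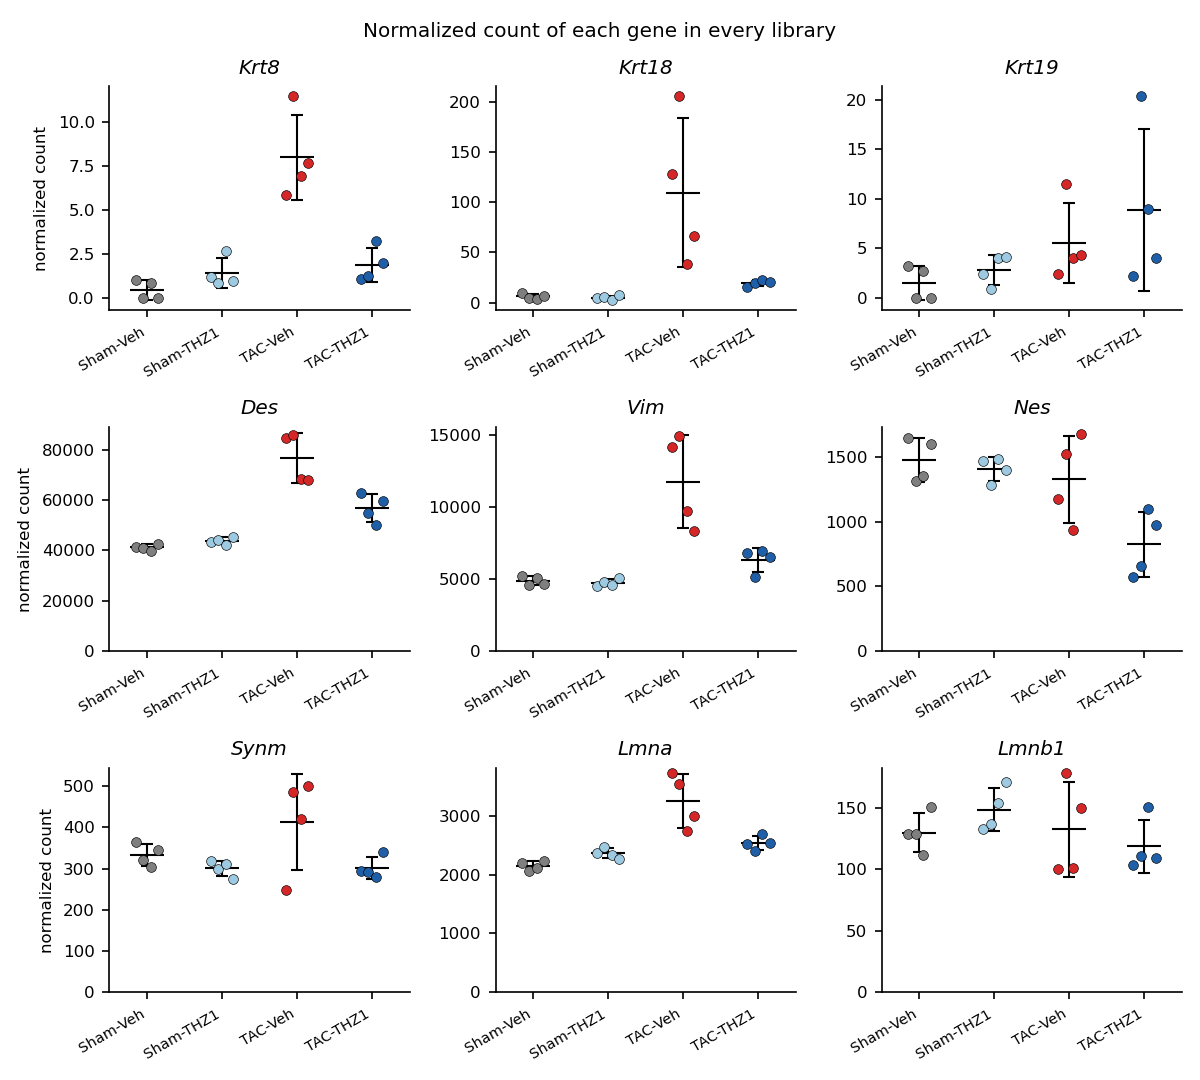
Normalized counts (vertical axes, each on its own scale from 0) of the 9 genes in the 16 libraries, with 1 dot a library ordered by replicate number and bars for the mean ± SD of each group. TAC-Veh lies above Sham-Veh without overlap in Krt8, Krt18, Des, Vim and Lmna, and Nes is lowest in TAC-THZ1. The share of all genes without overlap was not computed, and 21.4% of genes tested were called higher for TAC-Veh against Sham-Veh.

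The fit across all genes covered 7 members, since Krt8 and Krt19 did not reach 10 normalized counts in 4 libraries. A gene was called where its limma adjusted p over the 13331 genes tested was under 0.05. For TAC-Veh against Sham-Veh, 4 of the 7 (Krt18, Des, Vim and Lmna) were called higher and 0 lower, beside 21.4% of all genes called higher and 23.6% lower. For TAC-THZ1 against TAC-Veh, 5 (these and Nes) were called lower and 0 higher, beside 14.2% lower and 15.1% higher. Only Krt18 and Vim were called there when the fit held just the 2 groups compared, beside 583 of all genes called higher and 816 lower. The median log2 change over the 7 was 0.59 and -0.43 in these comparisons, and over all genes it was -0.003 and 0.01. Nothing is read from these counts, because the members were picked from the same contrasts, and the comparisons share the TAC-Veh libraries.

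THZ1 in sham hearts gave 0 calls among the 7, beside 0.0675% of all genes in either direction, and limma had 917 genes at an unadjusted p under 0.05. edgeR and DESeq2 also called 0 of the members there. A limma fit of only the 2 sham groups called more of all genes, 287 higher and 178 lower. It had 2747 genes at an unadjusted p under 0.05, and again called 0 of the 7 members. For TAC-THZ1 against Sham-THZ1, Krt18 and Des were called higher and Nes lower, beside 11.4% and 12.8% of all genes. Vim had a log2 change of 0.41 there (95% interval 0.09 to 0.72) and was not called. For the interaction, the difference between the THZ1 effects in TAC and in sham hearts, Des, Vim and Lmna were called lower, beside 5.62% of genes lower and 4.40% higher. The interaction value was -0.52 (SE 0.14) for Des, -0.82 (SE 0.21) for Vim, -0.49 (SE 0.11) for Lmna and -1.92 (SE 0.59) for Krt18. Only Lmna was called without Sham-Veh replicate 2, Sham-THZ1 replicate 4 or TAC-THZ1 replicate 2, and 5 members were called without TAC-Veh replicate 3. Calls over all genes moved in the same fits. There, 444, 472, 444 and 1236 genes were called lower, in this order, beside 749 with all libraries.

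**Figure D3:**
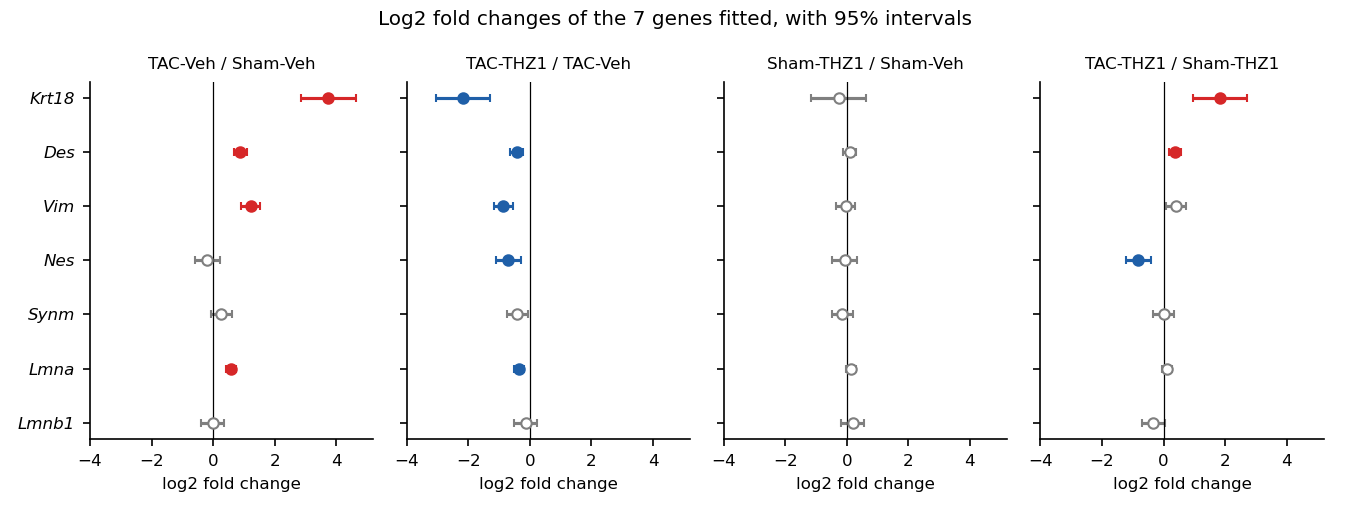
Fitted log2 fold changes (horizontal axes) with 95% intervals for the 7 members tested in 4 comparisons, with filled dots for called genes (red higher, blue lower) and open dots for the others. Krt18 is farthest from 0 in the TAC comparisons (3.75 and 1.83) and no member is called for THZ1 in sham hearts.

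Across the 16 libraries, Krt18, Des, Vim and Lmna followed each other closely, with Pearson's r of 0.92 to 0.95 between pairs. With the group means removed, r was 0.59 to 0.78 for these pairs. In TAC-Veh, replicates 1 and 2 were the highest for all 4 genes. Nes and Lmnb1 had r = 0.65 with each other, and 0.71 within groups. These values describe 16 libraries that share a normalization. Among 11393 tested genes averaging 50 normalized counts or more, Krt18 had r = 0.98 with Anxa8, Des was most like Scx (r = 0.98) and Tspan17 (0.98), and Vim was most like Anxa1 (0.99) and Pla1a (0.99). Lmna was most like Atp9a (0.98) and Sfxn3 (0.98), Nes like Myadm (0.92) and Megf9 (0.91), Synm like Marcks (0.90) and Dzip3 (0.90), and Lmnb1 like Dysf (0.85) and Cspg4 (0.84).

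The table held 47 other keratin genes, of which 3 passed the filter on low counts. Krt80, a type II keratin, was higher in TAC-Veh than in Sham-Veh by 1.31 on the log2 scale (SE 0.21, limma adjusted p = 0.00011). Its mean was 136 ± 26.7 normalized counts in TAC-Veh and 53.7 ± 6.76 in Sham-Veh (SD, n = 4). Krt222 was lower by 0.49 (log2 change -0.49, SE 0.16, adjusted p = 0.018), and Krt10 had a log2 change of -0.32 and was not called. None of the 3 was called for TAC-THZ1 against TAC-Veh, and their median log2 change was -0.32 in the first comparison and 0.29 in the second. Of 10 other intermediate filament genes, Sync, Bfsp1, Bfsp2 and Lmnb2 passed the filter, and none of these 4 was called in either comparison. Their median log2 change was 0.18 with TAC and -0.07 with THZ1 in TAC.

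Among the genes that link filaments to junctions and other cytoskeletons, or that act as their chaperones, 13 of 14 were tested. With TAC, 5 were called higher and 2 lower, beside 21.4% and 23.6% of all genes. Hspb1, a small heat shock protein, rose by 1.27 (SE 0.08, adjusted p = 4.5e-08). Ppl, which encodes periplakin, had a log2 change of -1.91 (SE 0.24, adjusted p = 1.2e-05), with means of 106 ± 35.6 normalized counts in TAC-Veh and 384 ± 37.5 in Sham-Veh. With THZ1 in TAC, Ppl was called higher by 1.54 (SE 0.24), while Hspb1 was called lower (-0.64, SE 0.08). The list's median was 0.10 with TAC and -0.12 with THZ1 in TAC.

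Of 12 tested genes for lamin partners in the nuclear envelope, 1 was called higher with TAC and 6 lower. Over all genes tested, the shares were 21.4% and 23.6%. Tor1aip1, a lamin-binding membrane protein, had a log2 change of -0.55 (SE 0.08, adjusted p = 3.1e-05). Sun2, a component of the bridge to the cytoskeleton, had -0.37 (SE 0.07, adjusted p = 0.00043). Both were called higher with THZ1 in TAC, by 0.21 (SE 0.08, adjusted p = 0.049) and 0.20 (SE 0.07, adjusted p = 0.033), and the other 10 were not. In that comparison 15.1% of all genes were called higher. The list's median was -0.20 with TAC and 0.13 with THZ1 in TAC. Of 5 lamin processing enzymes, Rce1 alone was called with TAC, at 0.38 (SE 0.10, adjusted p = 0.0058), and none with THZ1 in TAC.

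Markers of other cells moved beside these genes. Of all genes, 21.4% were called higher and 23.6% lower with TAC, and 15.1% higher and 14.2% lower with THZ1 in TAC. For fibroblasts, 4 of 6 markers were called higher in TAC-Veh than in Sham-Veh, and 4 were called lower in TAC-THZ1 than in TAC-Veh. Their summed level, led by Dcn, was 46152 to 78030 normalized counts in TAC-Veh, 25583 to 36619 in TAC-THZ1 and 23913 to 26302 in Sham-Veh. For myofibroblasts, 2 of 3 (Postn and Cthrc1) were called higher and then lower, with sums of 21760 to 68059 in TAC-Veh, 3170 to 8449 in TAC-THZ1 and 2685 to 3534 in Sham-Veh. For dividing cells, 2 of 5 were called higher and 4 then lower, with sums of 408 to 793 in TAC-Veh and 112 to 218 in TAC-THZ1, beside a Sham-Veh mean of 321. For cardiomyocytes, 4 of 7 were called lower and 5 then higher. Of 5 macrophage markers, 3 were called higher and then none lower. With TAC, 3 of 4 pericyte, 2 of 4 smooth muscle, 2 of 5 endothelial and both tested Schwann cell markers were called lower, and 1 each of the smooth muscle and endothelial markers was called higher. No marker of these lists was at 0 in all libraries. The part of these cells in the changes of Vim, Des, Lmna and Krt18 was not tested.

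Epicardium and mesothelium carry keratins, and 3 of their 6 tested markers were called higher with TAC, beside 21.4% of all genes. Aldh1a2 had a log2 change of 1.60 (SE 0.42, adjusted p = 0.0051), Msln 3.24 (SE 0.89, adjusted p = 0.0075) and Upk3b 2.94 (SE 0.98, adjusted p = 0.023). Wt1, Tbx18 and Lrrn4 had log2 changes of 0.00, 0.01 and 1.22 and were not called, and Upk1b, Muc16 and Bnc1 were below the filter. None of the 6 was called for TAC-THZ1 against Sham-THZ1, and none with THZ1 in TAC. Their log2 changes with THZ1 in TAC were -0.75 for Aldh1a2, -0.44 for Msln, -0.41 for Upk3b, -0.30 for Tbx18, 0.07 for Wt1 and 0.30 for Lrrn4, with a median of -0.35. Replicate 2 was the highest TAC-THZ1 library for Msln (73.8 normalized counts) and Upk3b (89.1) and the lowest for Aldh1a2 (94.2). Msln had a mean of 29.6 ± 30.9 in TAC-THZ1 and 26.7 ± 14.6 in TAC-Veh (SD, n = 4), and 14.9 in TAC-THZ1 without replicate 2. The 9 markers summed to 534 to 1208 in TAC-Veh, 446 to 685 in TAC-THZ1, 359 to 513 in Sham-Veh and 370 to 402 in Sham-THZ1. TAC-Veh replicate 2 had the highest sum (1208, of which Aldh1a2 gave 794) and the highest Krt8 and Krt18. TAC-THZ1 replicate 2, the highest of all libraries for Msln and Upk3b, held 19.1 normalized counts of Krt18 and 1.27 of Krt8. It was also the highest library for Krt19, at 20.4. TAC-Veh replicate 1 held 128 of Krt18, with 17.6 of Msln and 9.41 of Upk3b. It also held 263 of Wt1, the highest of all libraries, and 162 of Tbx18. Markers of other epithelia, Epcam, Cdh1, Cldn4, Sftpc and Scgb1a1, summed to at most 4.70 normalized counts in any library. The part of epicardial or mesothelial cells in the keratin counts was not tested.

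**Figure D4:**
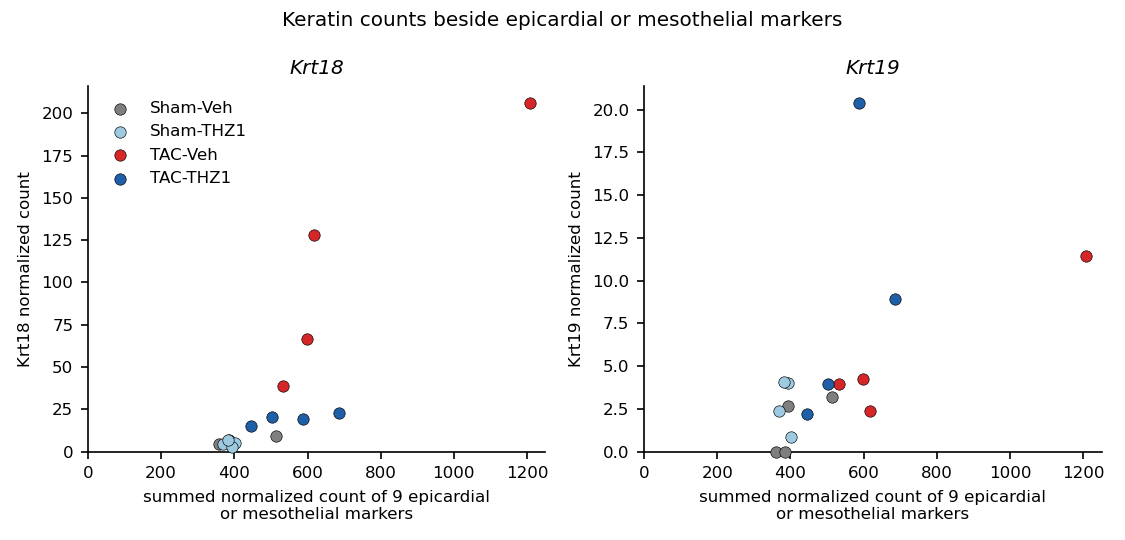
Normalized counts of Krt18 and Krt19 (vertical axes) against the summed normalized count of 9 epicardial or mesothelial markers (horizontal axes), with 1 dot a library. The marker sum is 534 to 1208 in TAC-Veh and 446 to 685 in TAC-THZ1, with a different mix of markers from library to library, and Krt18 is 38.6 to 206 in TAC-Veh and 15.3 to 22.8 in TAC-THZ1.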

How the data were processed

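RNA-seq of 16 mouse ventricle libraries was used. The deposited signal is a normalized count per gene: the authors aligned single-end reads of 40 bases to mm9 with TopHat2 2.1.1, counted them per GENCODE gene with htseq-count in reverse-stranded mode, and divided by DESeq2 size factors. Dividing by each library's step returned whole reads (tolerance 0.01) for 100% of values.

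Groups came from the labels. The test was limma 3.58.1 (R 4.3.3) on log2(normalized count + 1), with a mean per group, all 16 libraries, a variance trend, and genes at 10 or more in at least 4 libraries. P-values were adjusted by Benjamini-Hochberg over all 13331 genes in each of 5 contrasts. Log2 changes are on this scale, which understates those of low genes.

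The members and lists were chosen with earlier results of these data known. Genes named were the members, the 2 genes of each related list with the smallest adjusted p in each of the TAC and THZ1-in-TAC contrasts where under 0.05, the top gene of marker lists, all epicardial markers, and the 2 most correlated genes per member (mean of at least 50), of which 1 is not reported here. Others (Krt10, Sync and its list, Postn, Cthrc1, other epithelial markers) were named after their values were seen. Alternatives covered pseudocounts, filters, scalings, weights, a replicate block, edgeR 4.0.16, DESeq2 1.42.0, thresholds and leaving out each library. The 40-base stretches were matched to both strands of NCBIM37.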

Additional observations from a re-analysis of the deposited data

Results flagged for a closer look

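In TAC-THZ1, Lmnb1 was far from the other libraries in replicate 3, at 151 normalized counts against 104 to 111 in the remaining libraries. It was the 1 flag among 36 sets of 4 libraries (9 genes in 4 groups), a test in which chance flags about 1 in 20.

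By the interaction term of the fit, the change with THZ1 in TAC hearts was below that in sham hearts for Des (-0.52 on the log2 scale), Vim (-0.82) and Lmna (-0.49). The members were chosen from these contrasts, so these values are a description.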

How the results depend on the processing

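All 15 called member changes kept their sign under every alternative that tested them, and 4 of the 15 were called under all of them. Members called with TAC numbered 4, and 2 when a log2 change of at least 1 was also required. With THZ1 in TAC they numbered 5, 2 in a fit of only the groups compared and 1 with that fold threshold. For TAC-THZ1 against Sham-THZ1 they numbered 3, 5 with array weights and 1 with the fold threshold. For the interaction they numbered 3, and 0 at an adjusted p under 0.01 or with the fold threshold. The calls over all genes moved as well. For THZ1 in TAC, 2019 higher and 1899 lower became 583 and 816 with only those groups and 191 and 397 with the fold threshold. For TAC, 2857 and 3146 became 619 and 449 with that threshold. For TAC-THZ1 against Sham-THZ1, 1514 and 1706 became 2379 and 2632 with array weights and 155 and 115 with the threshold. For the interaction, 587 and 749 became 65 and 198 at the stricter p and 127 and 292 with the threshold. Leaving out 1 library gave 4 to 5, 5 to 6, 0 to 0, 3 to 4 and 1 to 5 member calls in the order TAC, THZ1 in TAC, THZ1 in sham, TAC under THZ1, and interaction. Over all genes, these fits called 2379 to 3051 higher for TAC and 889 to 1990 higher for TAC under THZ1. They called 1318 to 2224 lower for THZ1 in TAC and 444 to 1236 lower for the interaction. The cause was not tested, apart from the stricter thresholds. With no filter on low values, Krt8 was also called with TAC and with THZ1 in TAC. Same-numbered libraries did not deviate together (r -0.43 to 0.16, over 0.1 in 2 of 24 pairs, best with their own number in 7). These values show no pairing by number but cannot exclude one, and the labels name none. With a replicate block, 4, 5, 0, 3 and 4 members were called. Depth limits Krt8 and Krt19, whose groups held 2 to 37 reads.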
